A study of Mus musculus with 70 samples.

Results

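The comparison described here sets microglia from tamoxifen-treated pups against microglia from oil-treated pups, all of them heterozygous for the Cx3cr1CreERT2(Litt) allele and all given vehicle. Its members were the 4 libraries titled Vehicle, TAM, Cre+ and the 4 titled Vehicle, Oil, Cre+, which are 8 of the 70 libraries in the series. The series profiled microglia of 2 tamoxifen-inducible Cre lines, called Littman and Jung, as pups and as adults. Both groups carried 1 knock-in allele, so tamoxifen was the only labelled difference between them. Vehicle is the control arm of an experiment with UC2288, a compound used to lower p21, and neither group received UC2288. In the labels, pups got 0.1 mg tamoxifen on postnatal days 1 and 3 or 0.2 mg on days 5 and 7, and were 8 or 14 days old. The schedule and age of a single library are not stated, and no label says that the 4 libraries of a group came from separate animals, so the p-values measure the spread between these libraries, which may be technical. For reference, levels are also given for 5 libraries of Cx3cr1 wild-type (Cre-) pups that received vehicle and tamoxifen.

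CreERT2 is a Cre recombinase fused to a mutated oestrogen receptor domain, which holds it outside the nucleus until tamoxifen binds. In this line it is expressed from the Cx3cr1 locus, which is active in microglia and in other mononuclear phagocytes. Cre cuts DNA at loxP sites, and high nuclear Cre is known to cut related genomic sequences as well. Double-strand breaks activate p53, which induces Cdkn1a, the gene of the cell cycle inhibitor p21. DNA in the cytosol is bound by the enzyme cGAS and, through STING, induces type I interferon, whose receptor acts through STAT and IRF factors on interferon-stimulated genes. Microglia in the first weeks after birth still divide and take on the expression of homeostatic genes such as P2ry12.

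Each library came from 500 cells sorted as CD11b+ CD45+ Ly6G- CD206-, and values are molecule counts per gene given as CPM, a library's counts scaled to a common total. The tamoxifen libraries held 145050 to 277680 counts and 11145 to 12681 detected genes, against 137965 to 197693 counts and 9948 to 11107 genes in the oil libraries. A level of 20 CPM corresponded to about 2.65 to 5.52 counts in a tamoxifen library and 2.51 to 3.53 in an oil library. The part of depth in the results was not tested. Xist and Y-linked counts placed 2 males and 2 females in the tamoxifen group and 1 male and 3 females in the oil group. The correlation of log2 CPM between libraries was 0.866 to 0.915 within the tamoxifen group, 0.853 to 0.895 within the oil group and 0.653 to 0.740 between the groups. All 10 microglial marker genes examined were detected in each of the 8 libraries, so the label holds for both groups, although 8 of the 10 were lower with tamoxifen. In these bulk libraries, fewer cells of a type and less RNA per cell cannot be told apart.

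Cx3cr1, which encodes the receptor of fractalkine, served to check the genotype, because the allele that carries CreERT2 is disrupted. CEL-Seq2 reads the ends of transcripts, and whether these lie in the disrupted part was not examined. Its level was 972, 863, 1124 and 1146 CPM in the tamoxifen libraries and 1517, 1492, 1581 and 1767 CPM in the oil libraries, against 2719 to 3158 CPM in Cre- libraries. Each Cre+ library therefore lay below each Cre- library, which matches the genotypes in the labels. In the oil group the level was 1.87-fold lower than in Cre- pups (log2 fold change -0.90 ± 0.21, edgeR adjusted p 0.163), which passed the test with DESeq2 (adjusted p 0.0135) but not with edgeR. Tamoxifen lowered it further (log2 fold change -0.63 ± 0.22, edgeR adjusted p 0.0278), and the groups did not overlap. This call was lost without tamoxifen library 1, tamoxifen library 2 or oil library 4 (edgeR adjusted p 0.0573, 0.0778 and 0.0679).

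With tamoxifen, interferon-stimulated genes and Cdkn1a were higher, and homeostatic, ribosomal protein and mitochondrially encoded genes were mostly lower. Of 4953 genes abundant enough to test, edgeR called 1556 (31.4%) at an adjusted p below 0.05, of which 799 (16.1%) were higher and 757 (15.3%) lower. Changes of at least 2-fold were found in 608 of the higher and 465 of the lower genes. The 4 values of one group lay wholly outside those of the other for 1571 genes (31.7%). The median log2 fold change of all tested genes was 0.00. Scaling by raw library totals shifted that median to 0.16 and gave 992 higher and 565 lower genes, so that 63.7% of the calls were higher instead of 51.3%.

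**Figure D1:**
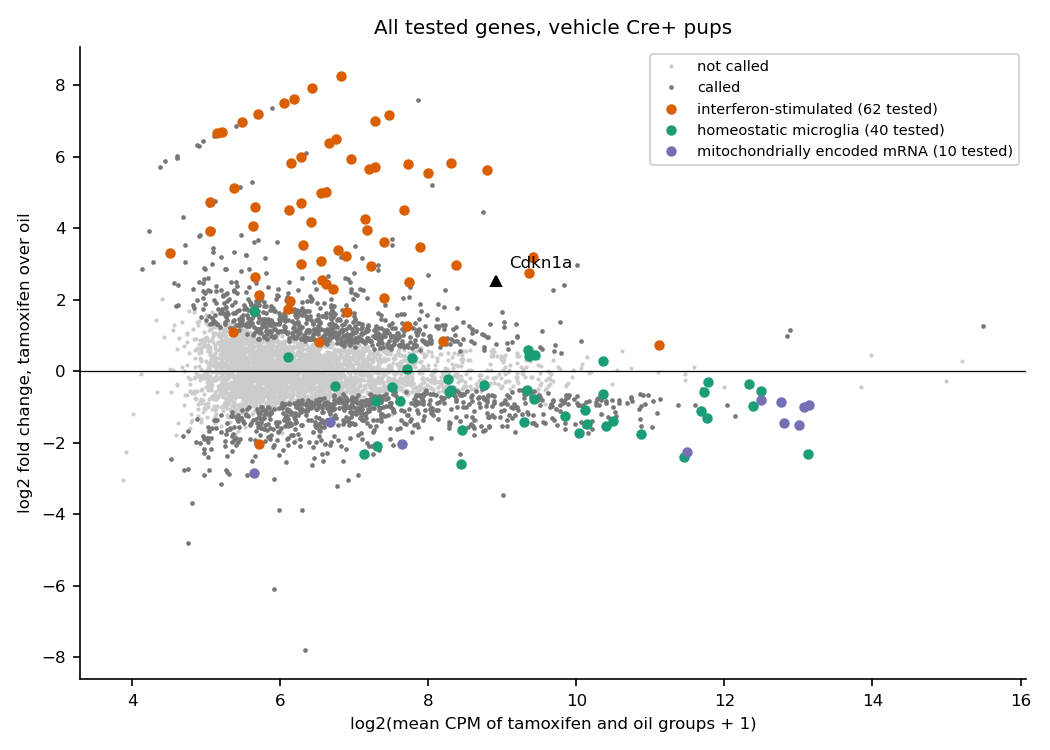
Log2 fold change of tamoxifen over oil (vertical axis) against mean level on a log2 scale (horizontal axis) for the 4953 tested genes, with called genes in dark grey and 3 gene lists in colour. Most interferon-stimulated genes lie far above 0, with Ifi27 below 0 and a few others, such as Irf9 and Gbp3, nearer to it, and the mitochondrially encoded mRNAs lie below 0.

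The p21 gene was among the clearest single changes. Cdkn1a (chr17:29090976-29100727, plus strand, GRCm38) had 1063, 702, 859 and 679 CPM in the tamoxifen libraries, against 147, 199, 163 and 55.5 CPM in the oil libraries. The groups lay far apart, and the lowest oil value came from library 4. The mean was 826 ± 177 CPM with tamoxifen and 141 ± 61.3 CPM with oil (SD, n = 4 each), a 5.80-fold difference (log2 fold change 2.54 ± 0.29, edgeR adjusted p 3.20e-08). In Cre- pups with tamoxifen Cdkn1a was at 69.3 to 165 CPM, within the range of the oil group.

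Of 40 listed p53 targets and cell cycle arrest genes, 17 were abundant enough to test. Tamoxifen raised 6 of them and lowered 1 (2 were lower without oil library 3 or tamoxifen library 4), with a median log2 fold change of 0.27, where 16.1% of all tested genes rose and 15.3% fell. Mdm2, which encodes the ubiquitin ligase that degrades p53, had 67.6, 60.0, 94.3 and 121 CPM with tamoxifen and 22.6, 16.0, 23.3 and 15.8 CPM with oil (log2 fold change 2.02 ± 0.41, edgeR adjusted p 0.000281). Cyclin G1, a p53-induced cyclin, showed the same separation, with Ccng1 at 150.2, 106, 127 and 158 CPM with tamoxifen against 22.6, 55.8, 17.5 and 39.6 CPM with oil (log2 fold change 2.04 ± 0.37, edgeR adjusted p 7.75e-05). Zmat3, which encodes a p53-induced RNA-binding protein, had 41 counts in the tamoxifen libraries together and 2 in the oil libraries. Apaf1, the core of the apoptosome, and Polk, a translesion DNA polymerase, were also called higher (log2 fold changes 1.38 ± 0.42 and 2.47 ± 0.75). The call of Polk was lost without oil library 3 (edgeR adjusted p 0.0507). In Cre- pups with tamoxifen Mdm2 was at 27.7 to 74.0 CPM, above each oil library.

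Not every p53-linked gene was called, which does not show that the others were unchanged. Trp53, which encodes p53 itself, had 120.1, 111, 90.6 and 113 CPM with tamoxifen and 164, 128, 58.3 and 87.1 CPM with oil (log2 fold change -0.02 ± 0.30, edgeR adjusted p 0.966). The apoptosis effector gene Bax and the antiproliferative gene Btg2 did not pass the test either (log2 fold changes 0.45 ± 0.29 and 0.44 ± 0.43, edgeR adjusted p 0.240 and 0.469). Ckap2, a spindle-associated gene on the list, was the 1 lower member (log2 fold change -1.80 ± 0.58), a call that was lost without tamoxifen library 1, tamoxifen library 2 or oil library 2 (edgeR adjusted p 0.0586, 0.0555 and 0.0537). Several further p53 targets were too rare to test. Trp53inp1 had 34 counts with tamoxifen and 2 with oil, Phlda3 had 19 and 1, and Bbc3, the gene of the apoptosis inducer PUMA, had 27 and 4.

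Genes of DNA break sensing and repair were mostly at low levels. Of 26 listed, 6 were tested, 1 was higher and 1 lower, near the shares of all tested genes (16.1% higher, 15.3% lower). Without 1 library each, 0 to 3 were higher, with 3 without tamoxifen library 2. Brca2, a recombination mediator, had 45.1, 60.0, 65.3 and 67.9 CPM with tamoxifen and 28.3, 31.9, 17.5 and 15.8 CPM with oil (log2 fold change 1.31 ± 0.44, edgeR adjusted p 0.0233), and lost its call without oil library 3, oil library 4 or tamoxifen library 3 (edgeR adjusted p 0.0711, 0.0606 and 0.0576). Limma-voom and edgeR with no filter on low counts did not call it either (adjusted p 0.0540 and 0.0724). H2ax, the gene of the histone that is phosphorylated at breaks, was lower at 30.0, 36.9, 43.5 and 22.6 CPM with tamoxifen, against 125, 63.8, 81.7 and 95.1 CPM with oil (log2 fold change -1.41 ± 0.36, edgeR adjusted p 0.00302).

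S phase and mitosis genes were lower or not called. Of 35 tested (45 listed), tamoxifen lowered 14, where 15.3% of all tested genes were lower. Of the 35, 34 had a negative log2 fold change, with a median of -0.78. Cdk1, the kinase that drives entry into mitosis, had 75.1, 96.9, 47.1 and 113 CPM with tamoxifen and 272, 239, 251 and 151 CPM with oil (log2 fold change -1.52 ± 0.26, edgeR adjusted p 4.60e-05). Stmn1, which destabilises microtubules in dividing cells, had 120.1, 185, 145 and 90.5 CPM with tamoxifen, against 402, 351, 344 and 309 CPM with oil (log2 fold change -1.36 ± 0.26). For both genes, all 4 tamoxifen values lay below all 4 oil values. Birc5, the survivin gene, and Ube2c, which marks mitotic cyclins for degradation, fell by comparable amounts (log2 fold changes -1.57 ± 0.31 and -1.81 ± 0.32). The proliferation marker Mki67 did not pass the test, at 210.3, 235, 279 and 219 CPM with tamoxifen and 221, 152, 397 and 364 CPM with oil (log2 fold change -0.26 ± 0.31, edgeR adjusted p 0.550). The summed level of the list was 3408 to 3873 CPM with tamoxifen and 5426 to 6633 CPM with oil, and 5304 to 6570 CPM in Cre- pups with tamoxifen.

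**Figure D2:**
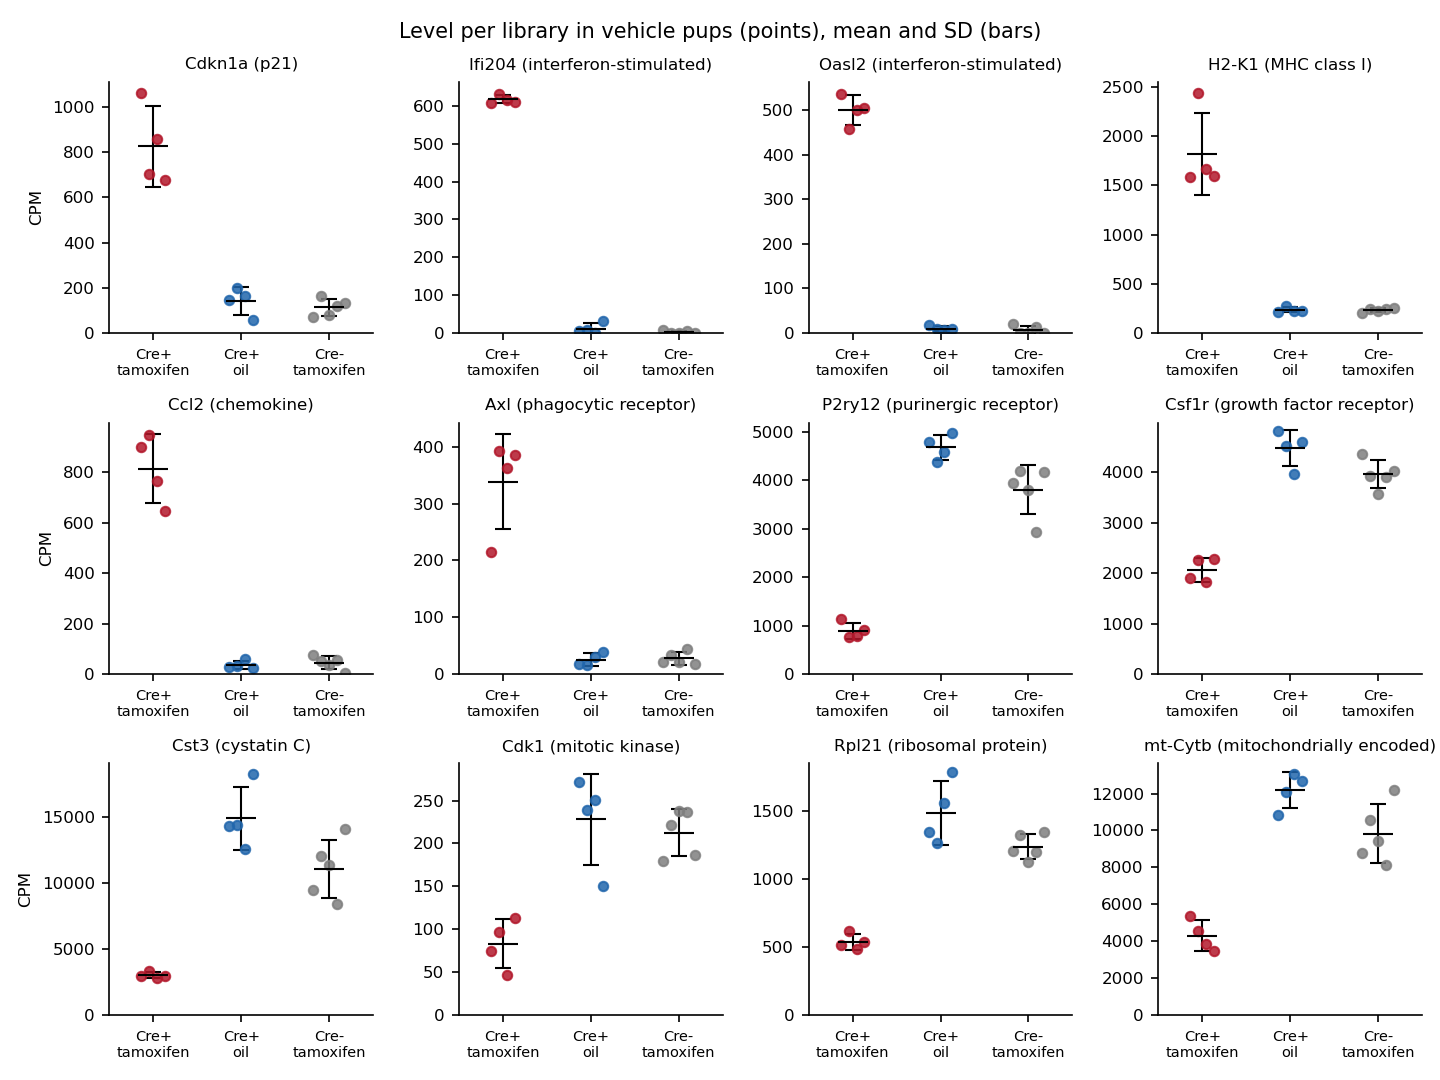
CPM of 12 genes in each library of the tamoxifen group (red), the oil group (blue) and Cre- pups with tamoxifen (grey), with the mean and SD of each group as black bars. For each of the 12 genes the 4 tamoxifen values lie outside the 4 oil values, and the Cre- mean lies nearer to the oil mean than to the tamoxifen mean.

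The interferon-stimulated genes, which hold antiviral effectors, sensors and transcription factors, were nearly all higher. Of 66 listed genes, 65 were in the table and 62 passed the filter on low counts, which counts all 5 groups of the table. Of the 62, 8 had no count in any oil library, so they could be tested only because they were high in another group. Others with few oil counts, such as Rsad2, Ifi207 and Cxcl10 with 1 each, also passed through other groups. The share of the 62 that was called and their median, given next, rest partly on that selection. Tamoxifen raised 60 and lowered 1. The median log2 fold change was 4.12, or 3.95 with genes without a count in the oil group set at their lower bound. Together the list made up 16603 to 19441 CPM in the tamoxifen libraries and 3204 to 3337 CPM in the oil libraries, and 2536 to 2957 CPM in Cre- pups with tamoxifen. The list was close in level in the oil and Cre- groups, and the tamoxifen libraries stood apart from both.

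Interferon-stimulated genes are known to carry a promoter element bound by STAT and IRF factors, with a core of GAAA, any 2 bases and GAAA. That core was searched on both strands of RefSeq promoter windows of 300 bases (250 before and 50 after a transcription start, GRCm38.p6). Windows were found for 47 of the 60 raised genes, and 27 of the 47 (57.4%) held the core in at least 1 window. It was in 29 of the 58 windows of the raised list genes, against 3.44% of all 32851 windows of the reference. A match is a description of these letters, not a binding site. Among the genes with no window were Dhx58, Ifi204, Ifi27l2a, Ly6a, Ly6e, Mx1, Oas2, Parp14, Parp9, Rtp4, Usp18 and Zbp1. The 4 raised list genes with the smallest p-values whose windows held the core before the start site are shown as examples, 5′ to 3′ on the gene's strand, with the core or its reverse complement (TTTC, any 2 bases, TTTC) in capitals. They lie at chr12:26456528-26456607 (Rsad2, minus strand), chr11:82951912-82951991 (Slfn5, plus strand), chr1:173741810-173741885 (Ifi207, minus strand) and chr8:71537552-71537637 (Bst2, minus strand). In Bst2, the 2 cores overlap.
Rsad2: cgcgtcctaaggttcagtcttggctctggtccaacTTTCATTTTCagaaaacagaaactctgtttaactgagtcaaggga
Slfn5: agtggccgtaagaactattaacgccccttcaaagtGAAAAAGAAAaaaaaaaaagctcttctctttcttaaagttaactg
Ifi207: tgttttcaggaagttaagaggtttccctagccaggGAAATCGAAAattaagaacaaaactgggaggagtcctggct
Bst2: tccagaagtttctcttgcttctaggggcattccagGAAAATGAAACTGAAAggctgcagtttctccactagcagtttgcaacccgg

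The levels of 3 of these examples, which were chosen among raised genes, follow. Rsad2, the gene of the antiviral enzyme viperin, had 289, 286, 312 and 513 CPM with tamoxifen and 0, 0, 0 and 7.92 CPM with oil, where 1 count was found in all 4 libraries (ratio of pooled counts 197 (exact 95% interval 35.1 to 7812), counting error only). Slfn5, a member of the schlafen family, had 424, 369, 460.5 and 407 CPM with tamoxifen, against 0, 16.0, 5.83 and 7.92 CPM with oil (log2 fold change 5.81 ± 0.49, edgeR adjusted p 9.12e-11). Bst2, which encodes the virus-tethering protein tetherin, had 1400.5, 1311, 1186 and 1010.4 CPM with tamoxifen, against 153, 112, 128 and 143 CPM with oil (log2 fold change 3.19 ± 0.31, edgeR adjusted p 1.17e-09). Each of these genes had a higher value in every tamoxifen library than in any oil library.

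Ligand and receptor genes of the pathway were examined after their values were seen. Of the interferon genes, Ifnb1 was in the table and had 0 counts in all 8 libraries. The receptor genes Ifnar1 and Ifnar2 were not called (log2 fold changes 0.67 ± 0.35 and -0.16 ± 0.34, edgeR adjusted p 0.148 and 0.756). The interferon gamma receptor chains moved in opposite directions, with Ifngr1 at 582, 540.0, 464 and 566 CPM with tamoxifen against 1075, 1093, 1009 and 1077 CPM with oil. Ifngr2 had 436, 282, 402 and 399.6 CPM with tamoxifen and 215, 247, 251 and 182 CPM with oil, and both differences passed the test (log2 fold changes -0.98 ± 0.20 and 0.76 ± 0.22, edgeR adjusted p 0.000318 and 0.00731).

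Several transcription factor genes of the pathway rose. Stat2, a signal transducer of the interferon receptor, had 252, 249, 268 and 317 CPM with tamoxifen, against 5.66, 16.0, 35.0 and 7.92 CPM with oil (log2 fold change 3.96 ± 0.39, edgeR adjusted p 1.36e-09), and the groups did not overlap. Irf7, the factor that amplifies interferon production, had 222 counts with tamoxifen and 2 with oil. Irf9, which encodes the DNA-binding partner of STAT2, changed less (log2 fold change 0.81 ± 0.30, edgeR adjusted p 0.0365) and lost its call without any of tamoxifen libraries 2, 3 and 4 or oil libraries 1 and 3 (edgeR adjusted p 0.0598 to 0.173). Its call was also lost with DESeq2 (adjusted p 0.0567), no filter on low counts and the stricter filter (edgeR adjusted p 0.145 and 0.0598). Irf8, a factor of macrophage identity, was higher at 582, 628, 562 and 664 CPM with tamoxifen and 368, 383, 298 and 372 CPM with oil (log2 fold change 0.78 ± 0.20). Irf1, Irf2, Irf3, Irf5 and Stat3 were not called, nor were the receptor kinase genes Jak1 and Tyk2 (edgeR adjusted p 0.133 to 0.895).

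Genes of the Ifi200 family, whose products bind DNA, were among the largest increases. They lie side by side on chromosome 1 (chr1:173468485-173913046 from Ifi206 to Ifi211, minus strand, GRCm38). Ifi204 had 608, 632, 616 and 611 CPM with tamoxifen and 5.66, 7.98, 0 and 31.7 CPM with oil (log2 fold change 5.84 ± 0.43, edgeR adjusted p 8.13e-12), with little spread among the tamoxifen libraries. Ifi213, Ifi211 and Ifi206 had no count in any oil library and 189, 155 and 105 counts over the tamoxifen libraries, so they were at least 42.4-fold, 34.8-fold and 23.5-fold higher, with 3 counts assumed over the oil group. Ifi207 had 274 counts with tamoxifen and 1 with oil. These genes are closely related in sequence, and how the counting treated shared reads is not given in the sources used here, so the division among them is uncertain.

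Antiviral effectors rose with them. Oasl2, a relative of the oligoadenylate synthetases, had 537, 457, 500.3 and 505 CPM with tamoxifen, against 17.0, 7.98, 5.83 and 7.92 CPM with oil (log2 fold change 5.55 ± 0.43, edgeR adjusted p 1.78e-11). Oas2, an oligoadenylate synthetase gene, had 122 counts with tamoxifen and none with oil (at least 27.4-fold higher). The RNA sensor gene Ifih1 and the deISGylase gene Usp18 also had no count with oil, and were at least 25.6-fold and 20.9-fold higher. In Cre- pups with tamoxifen, Ifih1 was counted in each library, at 6.93 to 18.7 CPM, and Usp18 was at 0 to 17.4 CPM. The Cre+ tamoxifen libraries were at 109 to 151 CPM for Ifih1 and 83.4 to 146 CPM for Usp18. Ifitm3, which blocks viral entry, ranged from 540.2 to 1269 CPM with tamoxifen and from 5.83 to 39.6 CPM with oil (log2 fold change 5.62 ± 0.56). The ubiquitin-like modifier gene Isg15 and the dynamin-like gene Mx1 were at 272 to 323 and 264 to 338 CPM with tamoxifen, with 3 counts each in the oil group. Iigp1, an interferon-induced GTPase gene outside the list, had 87 counts with tamoxifen and none with oil (at least 19.5-fold higher).

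A pair of the tested list members did not rise. Ifi27 was lower, at 33.8, 18.5, 18.1 and 0 CPM with tamoxifen and 39.6, 104, 87.5 and 111 CPM with oil (log2 fold change -2.04 ± 0.48, edgeR adjusted p 0.00143). The guanylate-binding protein gene Gbp3 did not pass the test (log2 fold change 1.11 ± 0.47, edgeR adjusted p 0.0680), although it did so without tamoxifen library 2 or oil library 4 (edgeR adjusted p 0.0423 and 0.0340) and with raw library totals (edgeR adjusted p 0.0359).

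The list of nucleic acid sensors, which shares Zbp1 with the interferon list, was called about as often as all tested genes (16.1% higher, 15.3% lower). Other sensor genes, among them Ifih1, Ddx58, Dhx58 and Eif2ak2, were counted on the interferon list and were called higher, so this list does not cover all sensors. Of 12 tested, 3 were higher and 2 lower, the second count being 1 without any of oil libraries 3 and 4 or tamoxifen libraries 1, 3 and 4. The DNA sensor gene Cgas had 109, 134, 156 and 128 CPM with tamoxifen, against 50.9, 71.8, 58.3 and 55.5 CPM with oil (log2 fold change 1.16 ± 0.27, edgeR adjusted p 0.00128), while Sting1, which encodes the adaptor that acts after cGAS, had 173, 189, 145 and 143 CPM with tamoxifen and 379, 351, 239 and 246 CPM with oil (log2 fold change -0.89 ± 0.24, edgeR adjusted p 0.00475). The groups did not overlap for either gene, in opposite directions. In Cre- pups with tamoxifen Cgas was at 69.8 to 116 CPM, a range that overlapped both Cre+ groups. Sting1 was at 193 to 308 CPM there, above each Cre+ tamoxifen library. Zbp1, a sensor of Z-form nucleic acids, had 119 counts with tamoxifen and 1 with oil. The endosomal receptor gene Tlr3, for double-stranded RNA, was higher at 113, 134, 76.1 and 113 CPM with tamoxifen and 22.6, 0, 52.5 and 23.8 CPM with oil (log2 fold change 2.01 ± 0.43). Among 14 Toll-like receptor and adaptor genes, 4 rose and 2 fell (1 fell without oil library 1, tamoxifen library 1 or tamoxifen library 3), with Cd180 higher and its partner Ly86 lower (log2 fold changes 0.79 ± 0.19 and -0.93 ± 0.19). In Cre- pups with tamoxifen Ly86 was at 2196 to 3015 CPM, also below each oil library.

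Genes of MHC class I presentation, which displays peptides at the cell surface, were higher or not called. Of 21 tested genes, 13 were higher and none lower, where 16.1% of all tested genes were higher and 15.3% lower. The list had a median log2 fold change of 0.98. H2-K1, a classical heavy chain gene, had 1584, 2442, 1664 and 1591 CPM with tamoxifen, against 215, 271, 228 and 222 CPM with oil (log2 fold change 2.96 ± 0.34, edgeR adjusted p 3.95e-08). H2-D1 had 1329, 2031, 1389 and 1379.8 CPM with tamoxifen and 272, 335, 274 and 261 CPM with oil (log2 fold change 2.42 ± 0.29). The light chain gene B2m, at 11238, 11710.1, 8118 and 8023 CPM with tamoxifen and 4392, 4762, 5221 and 5379 CPM with oil, rose 1.98-fold. Tap1, a subunit of the peptide transporter, had 184, 226, 178 and 219 CPM with tamoxifen and 22.6, 39.9, 40.8 and 71.3 CPM with oil (log2 fold change 2.23 ± 0.35). Nlrc5, the activator of class I genes, had 62 counts with tamoxifen and none with oil. The immunoproteasome gene Psmb9 was called (log2 fold change 1.14 ± 0.37), a call lost without oil library 1 (edgeR adjusted p 0.0852), and its neighbour Psmb8 was not (log2 fold change 0.58 ± 0.28, edgeR adjusted p 0.103). Psmb8 was called in a fit of the 8 libraries alone, with the replicate block and with raw library totals (edgeR adjusted p 0.0290, 0.0450 and 0.0286). Class I heavy chain genes share long stretches of sequence, so the division of reads among them is uncertain. None of 3 tested class II genes was called, and among them the invariant chain gene Cd74 had 56.3, 175, 102 and 67.9 CPM with tamoxifen and 56.6, 79.8, 81.7 and 55.5 CPM with oil (edgeR adjusted p 0.209). The 31 tested subunits of the constitutive proteasome gave no call, with a median log2 fold change of -0.05 (1 was higher without tamoxifen library 3).

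Most chemokine and cytokine genes tested, among them Cxcl10 of the interferon list, were higher. Of 15 tested, 10 rose and 2 fell, where 16.1% of all tested genes rose and 15.3% fell. The list had a median log2 fold change of 2.66. Ccl2, Ccl7 and Ccl12, which attract monocytes, lie within chr11:82035571-82103400 (GRCm38). Ccl2 had 901, 946, 765 and 648 CPM with tamoxifen, against 28.3, 31.9, 58.3 and 23.8 CPM with oil (log2 fold change 4.46 ± 0.45, edgeR adjusted p 2.00e-09). Ccl12 had 1423, 1325, 739.6 and 1319.5 CPM with tamoxifen and 136, 128, 140.0 and 143 CPM with oil (log2 fold change 3.13 ± 0.31), and its lowest tamoxifen value, in library 3, was still above each oil value. Ccl7 and the CXCR3 ligand gene Cxcl10 had 150 and 194 counts with tamoxifen and 1 count each with oil. Ccl5 had 61 counts with tamoxifen and none with oil (at least 13.7-fold higher). Tnf had 50 counts with tamoxifen and 4 with oil (log2 fold change 2.90 ± 0.79, edgeR adjusted p 0.00504).

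The 2 chemokine genes that fell were Ccl9 and Ccl6. Ccl9 had 60.1, 32.3, 36.3 and 37.7 CPM with tamoxifen and 209, 168, 175 and 174 CPM with oil (log2 fold change -2.09 ± 0.35, edgeR adjusted p 2.40e-05). Ccl6 had 105, 50.8, 47.1 and 60.3 CPM with tamoxifen and 204, 95.7, 175 and 254 CPM with oil (log2 fold change -1.44 ± 0.34), and 1 tamoxifen value lay within the oil range. Of 14 NF-kB feedback genes, 5 rose and none fell, where 16.1% of all tested genes rose and 15.3% fell. The inhibitor gene Nfkbia had 319, 291, 409.7 and 369 CPM with tamoxifen, against 84.9, 87.7, 99.2 and 47.5 CPM with oil (log2 fold change 2.09 ± 0.33, edgeR adjusted p 1.24e-05). Birc3, an inhibitor of apoptosis, and the subunit genes Rel and Nfkb1 were also higher (log2 fold changes 2.86 ± 0.67, 1.53 ± 0.42 and 1.08 ± 0.27). Immediate early genes, which respond to handling of the tissue, were higher in 2 and lower in 1 of 13 (Junb and Klf6 higher, the chaperone gene Hspa8 lower). Of all tested genes, 16.1% were higher and 15.3% lower. The summed level of the immediate early list was 2659 to 3394 CPM with tamoxifen and 2670 to 3147 CPM with oil.

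Many homeostatic microglial genes were lower. Of 40 tested, 24 were lower, 2 higher and 14 not called, where 15.3% of all tested genes were lower and 16.1% higher. The list had a median log2 fold change of -0.71. Its summed level was 38022 to 43116 CPM with tamoxifen and 75721 to 87608 CPM with oil. P2ry12, the purinergic receptor that guides microglial processes, had 1130.1, 762, 783 and 905 CPM with tamoxifen, against 4794, 4387, 4585 and 4983 CPM with oil (log2 fold change -2.39 ± 0.35, edgeR adjusted p 3.74e-06). In Cre- pups with tamoxifen it was at 2937 to 4204 CPM. Csf1r, the receptor that microglia need for survival, had 1911, 2271, 1820.1 and 2277 CPM with tamoxifen and 4817, 4531, 3973 and 4603 CPM with oil (log2 fold change -1.12 ± 0.19). The largest fall on the list was that of the lens crystallin gene Crybb1, expressed in early microglia, at 78.8, 87.7, 131 and 90.5 CPM with tamoxifen and 481, 503, 671 and 737 CPM with oil (log2 fold change -2.60 ± 0.41). For these 3 genes the groups lay far apart.

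Fcrls, Siglech, Gpr34 and Olfml3, which are surface or secreted proteins typical of microglia, fell by 1.49 to 1.76 on the log2 scale. Tmem119 was not called, at 623, 674, 431 and 392 CPM with tamoxifen and 657, 901, 793 and 689 CPM with oil (log2 fold change -0.51 ± 0.22, edgeR adjusted p 0.0674), though it passed with sex as a covariate or in a fit of the 8 libraries alone (edgeR adjusted p 0.0426 and 0.0444). Sall1, the transcription factor that maintains microglial identity, did not pass the test (log2 fold change -0.52 ± 0.25, edgeR adjusted p 0.110). Mef2c, another identity factor, was higher (log2 fold change 0.61 ± 0.20, edgeR adjusted p 0.0188), a call lost without oil library 1 or 3 and with no filter on low counts (edgeR adjusted p 0.0689, 0.0632 and 0.0707). The complement gene C1qa was not called (log2 fold change -0.31 ± 0.18, edgeR adjusted p 0.200), while C1qb and C1qc were lower.

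**Figure D3:**
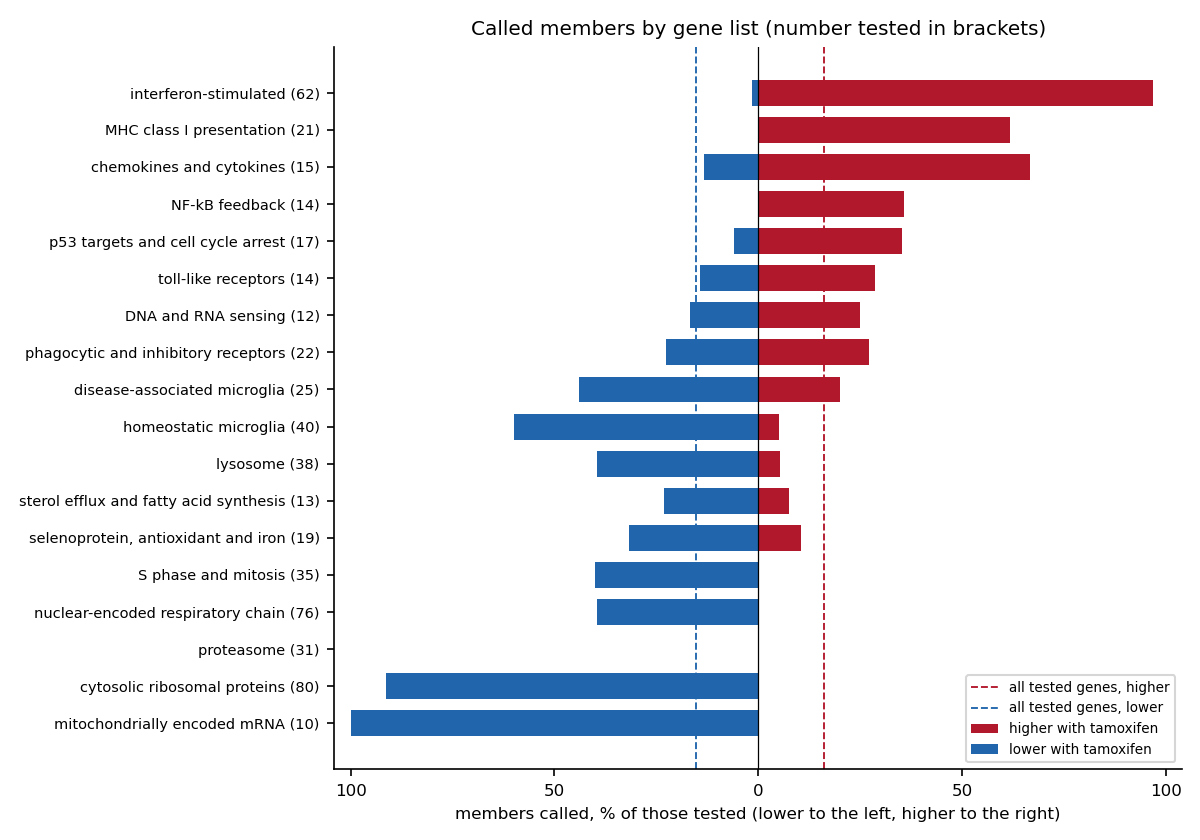
Share of the tested members of 18 gene lists called lower (blue, left) or higher (red, right) with tamoxifen, in percent, with the number tested in brackets and the shares of all tested genes as dashed lines. Interferon-stimulated genes stand far to the right, ribosomal protein and mitochondrially encoded genes far to the left, and the proteasome list is empty.

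Disease-associated microglial genes did not move as a block. Of 25 tested, 5 were higher and 11 lower, where 16.1% of all tested genes were higher and 15.3% lower. Cybb, the catalytic subunit of the phagocyte NADPH oxidase, had 357, 605, 468 and 415 CPM with tamoxifen and 5.66, 0, 0 and 0 CPM with oil (ratio of pooled counts 276 (exact 95% interval 49.2 to 10921), counting error only), and 5.28 to 27.7 CPM in Cre- pups. Axl, a receptor for apoptotic cells, had 214, 392, 363 and 385 CPM with tamoxifen, against 17.0, 16.0, 29.2 and 39.6 CPM with oil (log2 fold change 3.71 ± 0.48, edgeR adjusted p 4.49e-07). In the other direction, Apoe, the main lipid carrier of the brain, had 3038, 2571, 2723 and 2375 CPM with tamoxifen and 6769.6, 6158, 5799 and 6670.2 CPM with oil (log2 fold change -1.24 ± 0.23). In Cre- pups with tamoxifen Apoe was at 4025 to 5336 CPM, below each oil library. Trem2, a lipid-sensing receptor, and its adaptor Tyrobp fell as well (log2 fold changes -1.43 ± 0.22 and -1.13 ± 0.21). Of 22 phagocytic and inhibitory receptor genes, 6 rose and 5 fell, against 16.1% and 15.3% of all tested genes. The first count was 3 without oil library 1, and the second was 3 without oil library 2, tamoxifen library 1 or tamoxifen library 3. The scavenger receptor gene Cd36 had 57 counts with tamoxifen and 1 with oil, Cd300lf was higher (log2 fold change 3.62 ± 0.72), the Fc receptor gene Fcgr3 was lower (-0.95 ± 0.20), and Mertk, a relative of Axl, was not called (0.37 ± 0.24, edgeR adjusted p 0.243).

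Of 38 tested lysosomal genes, 15 were lower, 2 higher and 21 not called, where 15.3% of all tested genes were lower and 16.1% higher. The list had a median log2 fold change of -0.36. Its summed level was 29339 to 31516 CPM with tamoxifen, against 45847 to 57085 CPM with oil. Cst3, the gene of the protease inhibitor cystatin C, had 2985, 3323, 2806 and 2963 CPM with tamoxifen and 14315, 14421, 12624 and 18315 CPM with oil (log2 fold change -2.30 ± 0.30, edgeR adjusted p 3.66e-07). Its means, 3019 ± 218 CPM with tamoxifen and 14919 ± 2409 CPM with oil (SD, n = 4 each), make up much of the difference in the summed level, and Cst3 is also on the homeostatic list. It was at 8424 to 14103 CPM in Cre- pups with tamoxifen. Cd68, a lysosomal membrane gene, had 379, 355, 301 and 332 CPM with tamoxifen and 968, 877, 910.1 and 871 CPM with oil (log2 fold change -1.41 ± 0.24), and the cathepsin gene Ctsl fell by 1.35 on the log2 scale. Ctsc, the cathepsin that activates granule proteases, was 1 of the 2 higher genes.

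Selenoprotein, antioxidant and iron genes were lower in 6 and higher in 2 of 19, where 15.3% of all tested genes were lower and 16.1% higher. Selenop, the selenium carrier, had 78.8, 73.9, 76.1 and 121 CPM with tamoxifen, against 583, 582, 613 and 1973 CPM with oil, with library 4 above the other 3 (log2 fold change -3.45 ± 0.45, edgeR adjusted p 3.87e-07). Gpx3, a secreted glutathione peroxidase, and Cat, the catalase gene, were lower (log2 fold changes -2.36 ± 0.43 and -1.66 ± 0.44), and Nfe2l2 and Keap1, which encode the antioxidant regulator NRF2 and its inhibitor, were higher. Of 13 sterol efflux and fatty acid genes, Apoe, the desaturase gene Fads1 and the acyltransferase gene Lpcat3 fell and the sterol exporter gene Abcg1 rose (log2 fold change 0.75 ± 0.26, edgeR adjusted p 0.0270). The call of Abcg1 was lost without any 1 of 5 libraries (edgeR adjusted p 0.0507 to 0.0796). Among 9 cholesterol synthesis genes, Msmo1 was lower (log2 fold change -1.28 ± 0.37), a call lost without oil library 1 (edgeR adjusted p 0.0964).

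Ribosomal protein genes were mostly lower. Of 80 tested cytosolic ribosomal protein genes, 73 were lower and none higher, with a median log2 fold change of -0.94 (71 lower with raw library totals). They took 3.87% to 5.85% of the raw counts with tamoxifen and 8.48% to 9.40% with oil. Rpl21 had 514, 614, 482 and 535 CPM with tamoxifen, against 1341, 1260.3, 1558 and 1782 CPM with oil (log2 fold change -1.47 ± 0.21, edgeR adjusted p 2.59e-06). Reads of these genes may be shared with their many pseudogenes.

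All 10 tested mitochondrially encoded mRNAs were lower, with a median log2 fold change of -1.44. All transcripts of the mitochondrial genome together took 7.76% to 9.59% of the counts with tamoxifen and 8.93% to 12.3% with oil, and these ranges overlapped. mt-Cytb, which encodes cytochrome b, had 5358, 4551, 3832 and 3453 CPM with tamoxifen and 10839, 12100.0, 13044 and 12707 CPM with oil (log2 fold change -1.50 ± 0.22, edgeR adjusted p 4.41e-06). mt-Co1, a subunit of cytochrome oxidase, had 1153, 1195, 914 and 754 CPM with tamoxifen and 2604, 2943, 3529 and 10053 CPM with oil, where library 4 stood far above the others (log2 fold change -2.24 ± 0.31). Of 76 tested nuclear genes of the respiratory chain, 30 were lower, none higher and 46 not called, with a median of -0.65. That count was 17 without oil library 3, 11 without tamoxifen library 3, 17 with raw library totals and 14 with no filter on low counts. Cox7a2l, an assembly factor of respiratory supercomplexes, fell by 1.59 on the log2 scale.

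**Figure D4:**
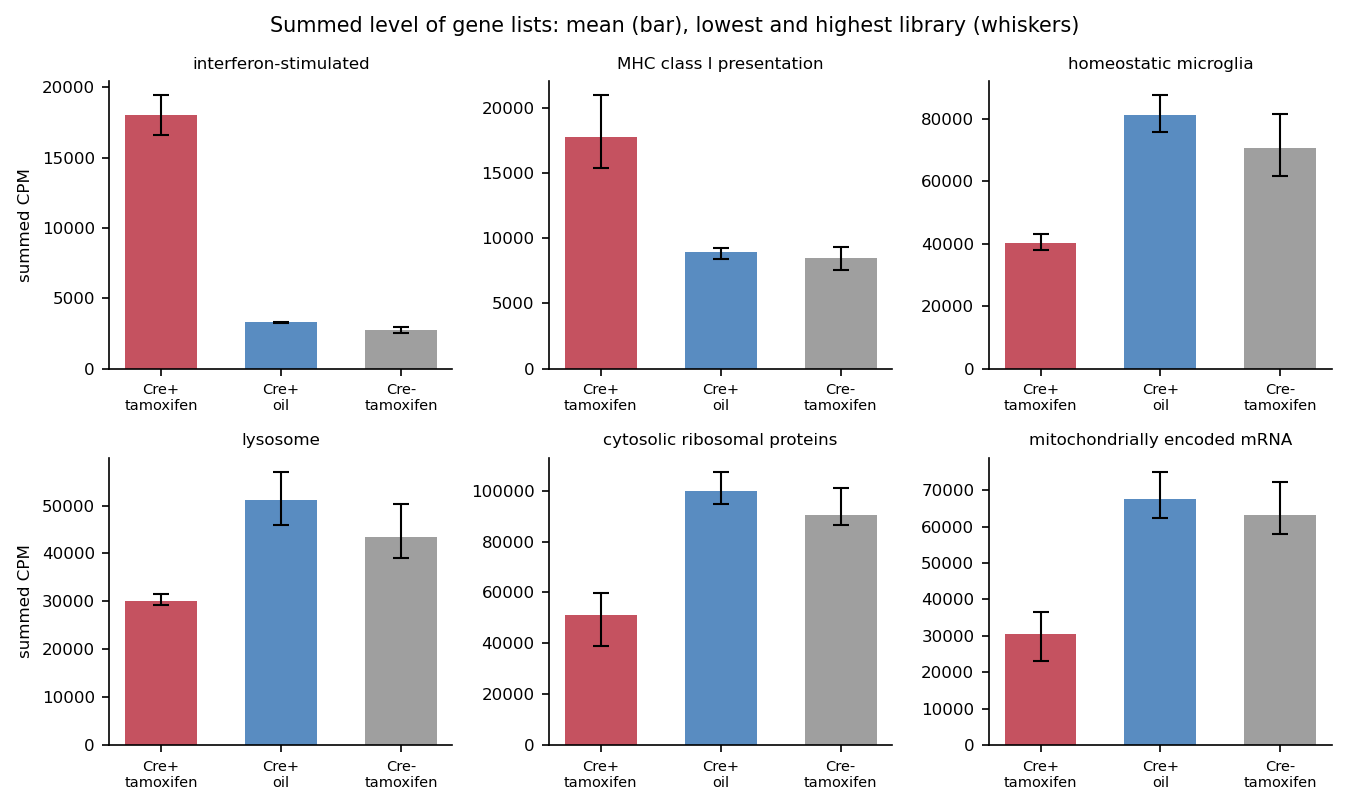
Summed CPM of 6 gene lists in the tamoxifen group (red), the oil group (blue) and Cre- pups with tamoxifen (grey), as the mean with whiskers at the lowest and highest library. The tamoxifen and oil whiskers do not overlap in any of the 6 panels.

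Tamoxifen is a ligand of the oestrogen receptor. Of 11 tested oestrogen response genes, 3 rose and 2 fell, near the shares of all tested genes (16.1% higher, 15.3% lower), and 1 fell without any of oil libraries 1, 2 and 4 or tamoxifen libraries 1, 3 and 4. Ccnd1, the gene of cyclin D1, had 207, 180.0, 301 and 302 CPM with tamoxifen, against 17.0, 23.9, 35.0 and 31.7 CPM with oil (log2 fold change 3.17 ± 0.36, edgeR adjusted p 3.24e-08), and 21.1 to 80.9 CPM in Cre- pups that received tamoxifen. Igfbp4, which binds insulin-like growth factors, had 135, 115, 109 and 90.5 CPM with tamoxifen and 628, 646, 455 and 562 CPM with oil (log2 fold change -2.32 ± 0.30), and 465 to 666 CPM in Cre- pups. Of 15 integrated stress and unfolded protein response genes, 2 rose and 2 fell, also near those shares. The 2 that fell, Phgdh and Psat1, encode the first enzymes of serine synthesis (log2 fold changes -1.97 ± 0.37 and -1.30 ± 0.26). The chaperone genes Hspa5 and Hsp90b1 were higher (log2 fold changes 0.58 ± 0.21 and 0.52 ± 0.19), and each lost its call without several single libraries (edgeR adjusted p up to 0.113 and 0.107) and with no filter on low counts (edgeR adjusted p 0.0809 and 0.137). Hsp90b1 also lost it with the stricter filter and with sex as a covariate (edgeR adjusted p 0.0621 and 0.0537). In Cre- pups with tamoxifen Hsp90b1 was at 852 to 1083 CPM, above each oil library, where the Cre+ tamoxifen libraries were at 897 to 1251 CPM. Of 5 glucocorticoid response genes, the kinase gene Pim1 was higher (log2 fold change 1.69 ± 0.35).

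The lowest log2 fold changes outside these lists rested partly on single libraries. Ramp1, a receptor activity-modifying protein gene, had 3.75, 4.62, 14.5 and 0 CPM with tamoxifen and 56.6, 71.8, 64.2 and 71.3 CPM with oil (log2 fold change -3.16 ± 0.57, edgeR adjusted p 6.84e-05). For Maged1 and Sftpa1 each tamoxifen value also lay below each oil value (log2 fold changes -2.83 ± 0.55 and -2.89 ± 0.55). The groups overlapped for 3 others. Slc22a15, an organic ion transporter gene, had 0, 0, 0 and 7.54 CPM with tamoxifen and 0, 7.98, 461 and 0 CPM with oil, almost all in library 3, without which it did not pass the filter on low counts. The pseudogene Rpl36-ps3 had no count with tamoxifen and 272, 343, 23.3 and 0 CPM with oil, and Syt15 had 0, 32.3, 0 and 7.54 CPM with tamoxifen, against 238, 335, 5.83 and 0 CPM with oil. Limma-voom did not call Slc22a15 or Syt15 (adjusted p 0.201 and 0.365). Syt15 was also not called with DESeq2 (adjusted p 0.0514) or without oil library 2 (edgeR adjusted p 0.0674).

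Markers of other cell types were at or near 0 for the most part. Among 12 monocyte markers, Ly6c2 and Chil3 had no count in any of the 8 libraries and Ccr2 had 3 counts with tamoxifen and 1 with oil. The list's summed level was 128 to 285 CPM with tamoxifen and 5.66 to 31.9 CPM with oil, and came mostly from Plac8, the 1 tested member, at 278, 231, 159.5 and 98.0 CPM with tamoxifen and 5.66, 16.0, 0 and 0 CPM with oil (ratio of pooled counts 40.6 (exact 95% interval 13.7 to 199), counting error only). Fn1 had 9 counts with tamoxifen and 0 with oil, and S100a4 had 0 with tamoxifen and 4 with oil. Among 13 neutrophil markers, S100a8, S100a9, Ngp and Camp had no count in either group. The list summed to 203 to 268 CPM with tamoxifen and 123 to 151 CPM with oil through the receptor gene Csf3r (log2 fold change 0.97 ± 0.25). Border macrophage markers summed to 919.9 to 1088 CPM with tamoxifen and 1053 to 1196 CPM with oil, with Cd163 at 0 in both. Of 5 tested, Ms4a6b and Ms4a6c rose, and Lyz2 and Mrc1 fell, where Mrc1 encodes the CD206 that the sort excluded and had 109, 115, 163 and 67.9 CPM with tamoxifen and 317, 319, 373 and 325 CPM with oil. The call of Ms4a6c was lost without tamoxifen library 2 or oil library 1 (edgeR adjusted p 0.0863 and 0.0710) and with limma-voom (adjusted p 0.0624). Of the other border macrophage markers, Ms4a7 and Stab1 had 29 and 132 counts with tamoxifen and 3 and 60 with oil. Pf4 and Cbr2 went the other way, with 3 and 0 counts with tamoxifen and 10 and 4 with oil.

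Of the remaining marker lists, the glutamate transporter gene Slc1a3, the 1 tested astrocyte marker, was higher at 90.1, 60.0, 102 and 82.9 CPM with tamoxifen and 28.3, 16.0, 23.3 and 39.6 CPM with oil (log2 fold change 1.63 ± 0.45), while Aldh1l1 and Clu were at 0 in both groups and Aqp4 had 1 count with tamoxifen and 2 with oil. The astrocyte list summed to 78.5 to 109 CPM with tamoxifen and 39.6 to 52.5 CPM with oil. Bsg, the 1 tested endothelial marker, was lower (log2 fold change -0.70 ± 0.21), a call lost with no filter on low counts (edgeR adjusted p 0.0662), and Cldn5 was at 0 in both groups. Kdr had 11 counts with tamoxifen and 0 with oil, and Pecam1 had 4 with tamoxifen and 10 with oil. The endothelial list summed to 196 to 290.0 CPM with tamoxifen and 356 to 467 CPM with oil. Lymphocyte, oligodendrocyte and neuron lists had no called member. Their summed levels were 334 to 601, 78.8 to 158 and 13.8 to 75.1 CPM with tamoxifen, against 415 to 570.4, 64.2 to 128 and 58.3 to 158 CPM with oil. No erythroid marker was abundant enough to test, and Hba-a1 had no count in either group. The part of these cells in the results above was not tested.

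The tamoxifen effect in adults was taken from 3 tamoxifen and 4 oil libraries of adult Littman mice, 6 to 15 weeks old, which received 4 mg tamoxifen per injection and whose labels name no vehicle. The difference of the tamoxifen effects was tested over 28 libraries on the genes in both tables. Age, dose, vehicle and count table differ together here and cannot be told apart, and levels set side by side come from tables counted separately. Of 5762 tested genes, edgeR called 613 (10.6%), with 394 (6.84%) higher and 219 (3.80%) lower in the pups. The counts were 374 and 361 without adult tamoxifen library 1 or 3, and 144 genes were lower without pup tamoxifen library 3. In the adults alone, 1 of 5512 genes was called (0.0181%, 154 at an unadjusted p below 0.05), and that gene was Cdkn1a.

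Cdkn1a had 826 ± 177 CPM with tamoxifen and 141 ± 61.3 CPM with oil in the pups, and 219 ± 22.0 CPM with tamoxifen and 68.9 ± 16.9 CPM with oil in the adults (means ± SD, n = 4 each in pups, 3 and 4 in adults). The log2 fold changes, 2.54 in pups and 1.66 in adults, gave a difference that did not pass the test (0.91 ± 0.42, edgeR adjusted p 0.159). Of 60 tested interferon genes, 43 had a higher fold change in the pups and 1 a lower one, with a median log2 difference of 3.79. In the adults alone 24 interferon genes were abundant enough to test and none was called, so many of the 60 passed the joint filter through libraries of the other groups. Usp18 had 102 ± 29.8 CPM with tamoxifen and 0 ± 0 CPM with oil in the pups, and 8.20 ± 5.65 CPM with tamoxifen and 17.6 ± 7.13 CPM with oil in the adults (log2 difference 8.54 ± 1.26, edgeR adjusted p 2.93e-05). Where a group has no count, as here and for Rrm2 and Ifih1 below, the size of the fitted difference depends on the prior count. Homeostatic genes differed in 19 of 41, 18 of them lower in the pups. Among ribosomal protein genes 17 of 80 were lower, and among S phase and mitosis genes 8 of 35. In the adults alone only 3 S phase and mitosis genes were abundant enough to test. The rest passed the joint filter through libraries of the other groups. Rrm2, a subunit of ribonucleotide reductase, had 69.3 ± 15.4 CPM with tamoxifen and 166 ± 36.2 CPM with oil in the pups and 11.5 ± 1.49 CPM with tamoxifen and 0 ± 0 CPM with oil in the adults (log2 difference -5.43 ± 1.10, edgeR adjusted p 0.00143).

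The other comparison was with pups of the Jung line, which also carry Rosa26YFP, with 4 tamoxifen and 5 oil libraries. Line, vehicle and count table cannot be told apart in it. The age and tamoxifen schedule of the vehicle pups are not stated, so these may differ between the lines as well. Of 7132 tested genes, edgeR called 1282 (18.0%), with 710 (9.96%) higher and 572 (8.02%) lower in the vehicle Cre+ pups of the Littman line. In the Jung pups alone, 6 of 7076 genes were called (0.0848%, 392 at an unadjusted p below 0.05), and all 6 were higher. By list, these calls held 3 of 19 MHC class I presentation genes and 1 of 39 interferon genes tested there. They also held 1 of 23 disease-associated and 1 of 78 ribosomal protein genes, and lists can share genes. Cdkn1a had 119 ± 26.9 CPM with tamoxifen and 63.6 ± 11.8 CPM with oil in Jung pups (means ± SD, n = 4 and 5), and rose more in the Littman pups (log2 difference 1.63 ± 0.37, edgeR adjusted p 0.00101). Ifih1 had 131 ± 18.2 CPM with tamoxifen and 0 ± 0 CPM with oil in Littman pups, and 25.1 ± 6.81 CPM with tamoxifen and 23.5 ± 4.05 CPM with oil in Jung pups (log2 difference 8.23 ± 1.05, edgeR adjusted p 7.29e-08).

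By list, 48 of 64 interferon genes had a higher fold change in the Littman pups and 1 a lower one, where 39 interferon genes were abundant enough to test in Jung pups alone and the rest passed the joint filter through other libraries. Of 16 chemokine and cytokine genes, 8 had a higher and 1 a lower fold change. Of 22 MHC class I presentation genes, 5 had a higher fold change and none a lower one. Homeostatic genes were lower in 22 and higher in 3 of 41. Ribosomal protein genes were lower in 73 of 80, with 9 of 10 mitochondrially encoded mRNAs lower as well. S phase and mitosis genes were lower in 16 of 38 and higher in none. In Jung pups alone 28 of these genes were abundant enough to test. None of the 28 was called there, and their median log2 fold change was 0.74. Spag5, a spindle gene, had 18.5 ± 2.73 CPM with tamoxifen and 59.5 ± 16.8 CPM with oil in Littman pups, and 15.2 ± 11.4 CPM with tamoxifen and 2.20 ± 3.02 CPM with oil in Jung pups (log2 difference -4.20 ± 0.91, edgeR adjusted p 0.000575). The Cx3cr1 effect gave no difference that passed the test against adults or Jung pups (log2 differences -0.51 ± 0.30 and -0.56 ± 0.22, edgeR adjusted p 0.283 and 0.0697), though the second passed with DESeq2 and limma-voom (adjusted p 0.0410 and 0.0266).

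**Figure D5:**
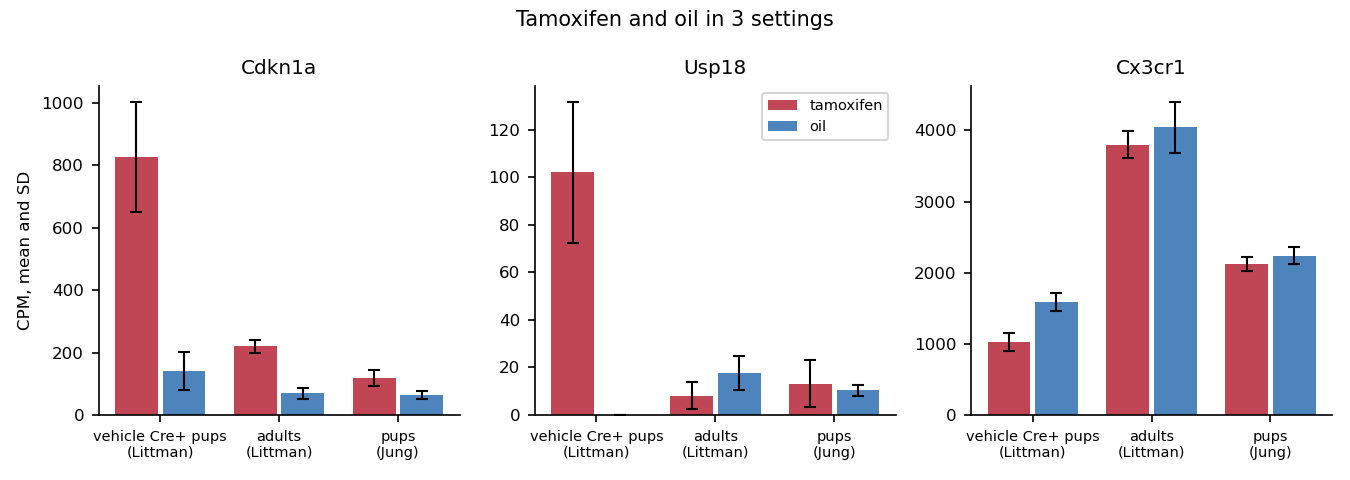
Mean CPM with SD of Cdkn1a, Usp18 and Cx3cr1 with tamoxifen (red) and oil (blue) in the vehicle Cre+ pups, in adult Littman mice and in Jung pups, from count tables made separately. Cdkn1a is higher with tamoxifen in each setting by its mean, without a call in Jung pups, and Usp18 is high in the tamoxifen-treated vehicle Cre+ pups.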

How the data were processed

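Bulk CEL-Seq2 libraries were made from 500 sorted microglia of PBS-perfused brains, with 15 of 30 uL lysate used, a library barcode of 9 nt and a molecular identifier of 10 nt, per the labels' protocols. The deposited values are raw molecule counts per gene. Tools listed in the submitters' processing notes are featureCounts, HISAT2, Trim Galore and UMI-tools, with the GRCm38 genome and with no versions or settings. Groups were taken from the sample labels. Counts were fitted with edgeR 4.0.16 (R 4.3.3), with TMM scaling, the filterByExpr filter and the quasi-likelihood test, over all 21 libraries of the count table (5 groups), so that the groups share 1 estimate of spread. Calls are at a Benjamini-Hochberg adjusted p below 0.05 over all 4953 tested genes of 20722, and errors of log2 fold changes are standard errors. CPM were computed from the counts with TMM scaling. Differences from adult Littman mice and Jung pups were fitted on joined tables of 16658 and 17389 shared genes.

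Alternatives were DESeq2 1.42.0, limma-voom 3.58.1, DESeq2 size factors, no filter, a filter of 20 CPM in 4 libraries, the 8 libraries alone, sex, a replicate block and each library left out. Raw library totals were added after seeing the data. The members and the gene lists were chosen with earlier results of these data known. Genes were named by a fixed rule. It took Cx3cr1, Cdkn1a and the 10 largest called changes in each direction among genes of at least 20 CPM, leaving out predicted gene models. From each list it took up to 4 called members by smallest p, or the tested member with the smallest p where none was called. In difference tests it took the 4 largest in each direction. Other genes were added after their values were seen, among them interferon receptors and uncalled members. A fold against a group without counts is a lower bound that assumes 3 counts over that group, and 95% intervals of pooled ratios cover counting error only. The scripts were tested on simulated data. In the simulation of tamoxifen over oil, 5.97% of 1.5-fold, 28.4% of 2-fold and 89.4% of 4-fold changes were called. It changed only 67, 67 and 66 genes at these folds, where 1556 genes were called in the data. The shares called may therefore differ from those in the data. A gene without a call may still have changed. No pair of libraries within the tamoxifen or the oil group agreed within sampling noise, and other pairs were not compared. Some genes are not reported here.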

Additional observations from a re-analysis of the deposited data

Results flagged for a closer look

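Among 116 groups of 4 values examined, for the genes whose libraries the report gives, 14 held a library set apart from its other 3 by Dixon's ratio. Chance flags about 1 in 20, or 5.8 of 116. Oil library 4 was high for mt-Co1 (10053 CPM, against 2604 to 3529 in the others) and Selenop (1973, against 582 to 613). Tamoxifen library 2 was high for H2-K1 (2442 CPM, against 1584 to 1664) and H2-D1 (2031, against 1329 to 1389). Tamoxifen library 4 was high for Rsad2 (513 CPM, against 286 to 312) and Selenop (121, against 73.9 to 78.8). Low values stood apart for Axl in tamoxifen library 1 (214 CPM, against 363 to 392) and Ccl12 in tamoxifen library 3 (739.6 CPM, against 1320 to 1423). Oil library 3 was high for Mrc1 (373 CPM, against 317 to 325) and Slc22a15 (461 CPM, against 0 to 7.98). The remaining 4 were single libraries with counts where the other 3 had none, for Cybb (5.66 CPM, oil library 1), Mx1 (17.5 CPM, oil library 3), Rsad2 (7.92 CPM, oil library 4) and Slc22a15 (7.54 CPM, tamoxifen library 4).

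Effects that differed from those in adult Littman mice by the edgeR test of the difference were higher in the pups for Ifi206 (log2 difference 9.51), Ifi213 (9.05), Usp18 (8.54) and Cp (7.71). They were lower for Rrm2 (-5.43), Tmem204 (-5.15), Pbk (-4.50) and Ube2c (-4.07, but -0.60 without adult tamoxifen library 3). Against Jung pups, differences were higher for Ifi211 (10.40), Cxcl10 (8.36), Ifih1 (8.23), Usp18 (7.67) and Cdkn1a (1.63), and lower for Tmem204 (-5.56), Adamts16 (-4.28), Spag5 (-4.20) and Rpl34-ps1 (-4.17). The edgeR adjusted p were 2.93e-05 to 0.0242 against adults and 7.29e-08 to 0.0262 against Jung pups. Fitted sizes depend on the prior count where a group has no count or few, as for Ube2c and Pbk with adult oil (0.868 and 0.891 CPM).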

How the results depend on the processing

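Called genes numbered 1386 with DESeq2, 1513 with limma-voom, 1543 with DESeq2 size factors, 1519 with no filter, 1673 with the stricter filter, 1481 with the 8 libraries alone, 1489 with sex and 1557 with raw totals, against 1556. Without 1 library each they numbered 1157 to 1400 (626 to 724 higher, 531 to 676 lower). Same-numbered libraries did not deviate together (r -0.006 to 0.028 over 4 numbers, of which libraries 3 and 4 matched their own number best), so the numbers do not pair them. The replicate block gave 1393 calls, 1231 of them shared, and 580 and 1446 for the differences from adults and Jung pups.

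The Cx3cr1 log2 fold change lost its call with no filter (-0.62, edgeR adjusted p 0.0525) and raw totals (-0.48, edgeR adjusted p 0.0809), and ranged from -0.68 to -0.56 without 1 library each. Oil Cre+ against Cre- pups gave -0.91 with DESeq2 (adjusted p 0.0135). The difference from adults ranged over 361 to 607 calls (243 to 381 higher, 110 to 226 lower) without 1 library each, and 576 to 780 otherwise. That from Jung pups ranged over 979 to 1275 and 1252 to 1565. List medians changed sign for phagocytic and inhibitory receptors (-0.14, but 0.29 with no filter, 0.048 with the stricter filter, 0.015 with raw totals) and border macrophage markers (0.60, but -0.17 with the 8 libraries alone and with the replicate block). The cause was not tested. Of 153 genes followed by name, 136 were called, of which 119 lost no call and changed no direction under any alternative that gave a value and 17 lost their call under at least 1. Among the named differences, calls were lost for Ube2c (limma-voom adjusted p 0.106, log2 difference -0.60 and edgeR adjusted p 0.816 without adult tamoxifen library 3), Ifi206 (edgeR adjusted p 1.00 without adult oil library 4), Ifi211 (1.00 without Jung oil library 1) and Cxcl10 (0.108 and 0.110 without Jung oil library 1 or 5). About 20 CPM is 2.51 to 5.52 counts in these libraries, so changes of genes that are rare in both groups may have been missed at this depth.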
